A study of Homo sapiens with 8 samples.

Results

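In H1650 cells, an established line from a human lung adenocarcinoma, chromosome 13 carried 764 of the 46665 regions of open chromatin (1.64%) that ATAC-seq lists of 8 libraries gave together. ATAC-seq marks open chromatin by the adapters that a transposase inserts there. A region is a stretch of hg19 in which the peaks of any of the 8 lists overlap or touch, and the members are all such regions on this chromosome, chosen by position alone. No member was removed by a filter on low values. The libraries form 4 groups of 2 replicates: untreated cells, and cells transfected with 20 nmol/L of a non-targeting siRNA pool (siControl), of a mix of 3 siRNAs matching exon 11a of hMENA (siMena11a), or of a pool that targets all hMENA isoforms (siMena). The gene ENAH encodes hMENA, a regulator of actin filaments, and exon 11a is included in the isoform of epithelial cells. All 8 libraries come from the same line, and the labels do not say whether the replicates are separate cultures.

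Chromosome 13 is acrocentric, so its open chromatin lies on the long arm, and it is among the chromosomes poorest in genes. It carries RB1, which encodes the retinoblastoma tumour suppressor that restrains entry into the cell cycle, and KLF5, a zinc finger transcription factor of proliferating epithelium. Loss of parts of the long arm is a recurrent change in lung cancers. Open sites are typically found at promoters and enhancers, so a chromosome poor in genes is usually also poor in open sites.

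The lists differed widely in length, and the short ones came from libraries with many tags. Replicate 1 libraries listed 14678 to 35472 peaks genome-wide, and replicate 2 libraries 22424 (untreated), 5231 (siControl), 2832 (siMena11a) and 1020 (siMena). The genome-wide background, which is the mean number of extended tags over a position and follows the number of tags, ran from 0.538 to 0.935 in replicate 1 and from 1.09 to 2.88 in replicate 2. Results that rest on the 3 shortest lists therefore rest on 44, 17 and 4 peaks of chromosome 13.

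Open regions were sparse on chromosome 13. Over the 94.9 Mb from the first region, which starts at 20161926, to the end of the last at 115080370, there were 8.05 regions per Mb. The median of the 22 other chromosomes (1 to 22 and X) was 16.6 per Mb, and only X, with 7.67, had fewer. Chromosomes 14 and 15, which are also acrocentric, had 17.6 and 18.9 per Mb, and chromosome 4, also thinly covered, had 11.7. Chromosome 13 stood at 0.484 of the median of the others when counted over its span and at 0.510 when counted over 1-Mb bins that held a region. The median distance between neighbouring regions was 46.9 kb, the longest of the 23 chromosomes, against 25.5 kb over all of them. Neighbours under 10 kb apart made up 20.3% of the distances on chromosome 13 and 27.1% on all 23 chromosomes. The regions themselves were of ordinary width, with a median of 382.5 bp against 394 bp over all regions, a range of 200 to 1319 bp and 342 kb covered in all.

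Density varied strongly along the arm. The first 35 Mb of bins, from 20 to 55 Mb, held 36 to 59 regions per 5 Mb. Next to them the bin from 55 to 60 Mb held 2, both listed in 1 library only, and the stretch from 55628410 to 60348591 had none over 4.72 Mb. This was the longest of 12 stretches over 1 Mb without a region. Thin bins followed up to 70 Mb and again from 80 to 95 Mb, with 11 to 20 regions each, on either side of 30 and 52 regions in the bins from 70 and 75 Mb. In bins of 5 Mb the end of the arm was densest. The bin from 95 to 100 Mb held 77 regions and that from 110 to 115 Mb held 92, or 18.4 per Mb. In bins of 1 Mb the densest was 114 to 115 Mb with 27 regions, followed by 99 to 100 and 111 to 112 Mb with 26 each, and 8 of 96 bins were empty. In bins of 10 Mb the densest was instead 40 to 50 Mb with 102 regions, and the last, whose regions end at 115080370, held 95.

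Density and the frequency of listing did not go together in every bin. From 111 to 112 Mb, 12 of 26 regions (46.2%) were listed in 5 or more libraries, but from 113 to 114 Mb none of 20 was, and from 35 to 40 Mb 1 of 36 was. In the thin bin from 85 to 90 Mb, 7 of 16 (43.8%) were. Over the whole chromosome 146 of 764 (19.1%) reached 5 libraries.

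**Figure D1:**
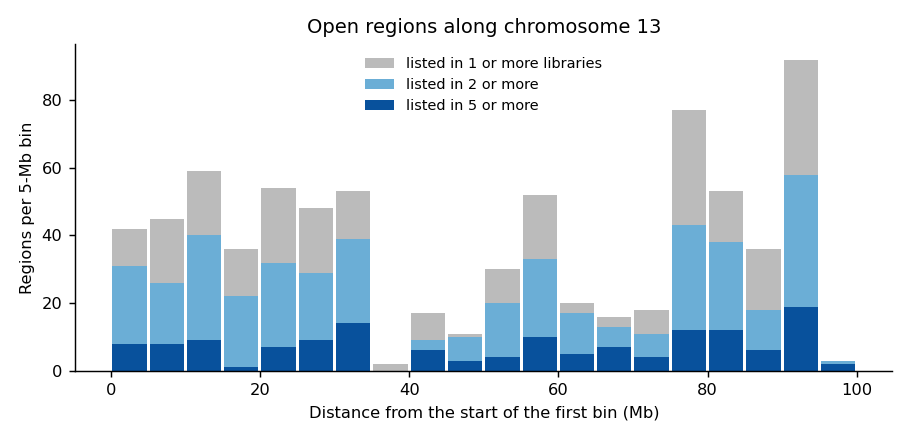
Number of chromosome 13 regions per 5-Mb bin (vertical axis) against the distance from the start of the first bin in Mb (horizontal axis). Grey bars count all regions, light blue those listed in 2 or more libraries and dark blue those listed in 5 or more, drawn over each other from 0. The bins range from 2 to 92 regions, with the low stretch in the middle and the highest bin near the end.

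Most members were listed in few libraries. Of the 764, 272 (35.6%) were listed in 1 library, where the background over all 46665 regions was 31.2%. Members listed in 5 or more libraries made up 19.1%, against 24.6% of all regions, and those in 7 or more 10 (1.31%), against 4.34%. Only 3 (0.393%) were listed in all 8, against 1.16%. Chromosomes 14 and 15 had 6.26% and 3.59% of their regions in 7 or more libraries, and chromosomes 19 and 22 had 0.631% and 0.405%, so chromosome 13 was low but not lowest. The median width was 245 bp for members seen once and 682 bp for those seen in 5 libraries, but a region joins all its peaks and can widen with each library.

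By library, 530 members (69.4%) were listed in untreated replicate 1, where 72.4% of all regions were. siMena11a replicate 1 listed 562 (73.6%, against 74.6%), siControl replicate 1 listed 360 (47.1%, against 56.7%) and siMena replicate 1 listed 187 (24.5%, against 30.2%). In replicate 2 the untreated library listed 358 (46.9%, against 46.4%), siControl 44 (5.76%, against 10.9%), siMena11a 16 (2.09%, against 5.92%) and siMena 4 (0.524%, against 2.14%). Members were thus listed less often than all regions in 7 libraries, and slightly more often in untreated replicate 2. Of the 272 members listed once, 101 were in siMena11a replicate 1, 97 in untreated replicate 1 and 56 in untreated replicate 2. The 4 replicate 1 libraries shared 170 members, and 61 members were listed in replicate 2 libraries only. For these overlaps, and for the members listed once in each library, no share over all regions is given. They are therefore not read as particular to chromosome 13.

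**Figure D2:**
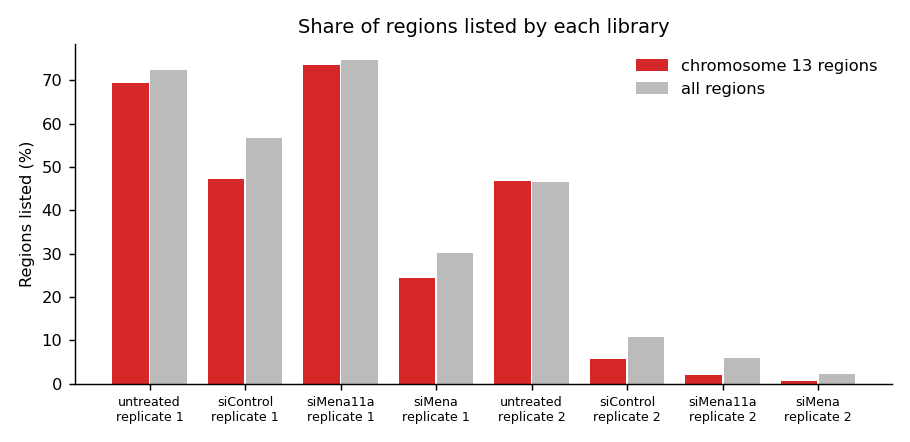
Percentage of regions listed (vertical axis) by each of the 8 libraries (horizontal axis), for the 764 regions of chromosome 13 (red) and for all 46665 regions (grey). The red bar is the lower of each pair except in untreated replicate 2, and the 3 transfected replicate 2 libraries list 44, 16 and 4 members.

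The short replicate 2 lists reached the beginning of the arm hardly at all. Of the 284 members that start before 50 Mb, 3 were listed in siControl, siMena11a or siMena replicate 2, while 48 of the 480 beyond 50 Mb were. In siControl replicate 2 alone these were 3 and 41, where that library listed 5.76% of all members and 10.9% of all regions. The siMena11a and siMena replicate 2 libraries listed 5.92% and 2.14% of all regions, and no share is given for the 3 lists together. Density was higher before 50 Mb (9.53 per Mb) than beyond it (7.38 per Mb). The boundary at 50 Mb was chosen after the values were seen, and the difference was not tested.

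The local background at chromosome 13 summits was low in all 8 libraries. A summit is the highest point of a peak, and its local background is the expected number of tags there, which the peak caller takes from a window of 10 kb or, if higher, from the whole genome. It was recovered from the authors' fold and −log10 p of each summit and is given here as a multiple of the genome-wide background of the same list, so its lowest possible value is 1. Among replicate 1 libraries, the chromosome 13 median was 1.67 for untreated cells, 1.36 for siControl, 1.48 for siMena11a and 1.32 for siMena. In replicate 2 the untreated median was 1.19, and those of the other 3 libraries lay at the floor of 1.00. The medians of the 21 other autosomes had a midpoint of 2.53, 2.25, 2.43 and 2.19 in replicate 1 and of 2.00, 1.47, 1.43 and 1.55 in replicate 2, in the same order of groups.

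Chromosome 13 had the lowest median of the 22 autosomes in each of the 8 lists. The next lowest autosome was chromosome 6, 18 or 4, depending on the list, with 1.74 to 2.04 in replicate 1 and 1.12 to 1.32 in replicate 2. Chromosome X came close to chromosome 13, with 1.38 to 1.75 in replicate 1 and 1.00 to 1.19 in replicate 2. Chromosome 20 was highest in all 8 lists, with 2.52 to 3.36. The ratio of chromosome 13 to the midpoint of the other autosomes ran from 0.596 to 0.699 over the 8 lists, with a median of 0.626 ± 0.040 (SD, n = 8). In siControl, siMena11a and siMena replicate 2 the chromosome 13 median lay at the floor. Their ratios of 0.682, 0.699 and 0.644 are therefore upper limits, and the median and SD include them. The libraries share one genome and are not independent samples of it, and the chromosome was singled out with earlier results of these data known, so no test is given.

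The floor hides how low the values are. On chromosome 13, 20.8%, 25.1%, 24.9% and 25.6% of summits lay at the floor in untreated, siControl, siMena11a and siMena replicate 1, which means that their windows held no more tags than the genome average. On the 21 other autosomes these shares were 5.60%, 4.32%, 5.98% and 3.63%. In replicate 2 the summits at the floor numbered 135 of 415, 35 of 45, 12 of 18 and 3 of 4 (32.5% in untreated and 77.8% in siControl), where the shares on the other autosomes were 4.49%, 12.7%, 10.4% and 10.6%. The share at the floor was thus several times higher on chromosome 13 in every library.

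A summit's own peak and its neighbouring peaks add tags to a window, and neighbours are fewer where regions are sparse. Among peaks with 1 summit and no other region within 10 kb, chromosome 13 had replicate 1 medians of 1.30, 1.13, 1.07 and 1.16 (125 to 315 peaks). The other autosomes had 1.76, 1.73, 1.63 and 1.88. No autosome had a lower median in the replicate 1 lists or in untreated replicate 2 (1.06, 198 peaks). The siControl, siMena11a and siMena replicate 2 lists held only 26, 13 and 1 such peaks. No autosome was lower there either, but medians of 1.00, 1.00 and 1.02 lay at or near the floor, so these ranks say little. Among narrow peaks (1 summit, under 300 bp) it ranked from lowest to sixth lowest, with medians of 1.00 to 1.13. Among summits with a fold under the median of their list it ranked from lowest to sixth lowest, with medians of 1.00 to 1.45. The summits themselves were lower in tags. The median pileup, the number of extended tags over a summit, was 11 to 15 on chromosome 13 in replicate 1. The medians of the other autosomes had midpoints of 14 to 19 in these lists, and no autosome had a lower median than chromosome 13 in any of the 8. Chromosome X was close to chromosome 13, with median pileups of 12 to 15 in replicate 1. The pileup is not a separate measure from the local background. Lists keep only peaks that pass a threshold, so summits with fewer tags can pass where the local background is low. A summit's own tags also count in its window. How much of the low pileup or of the low background comes from this link was not tested. Copy number was not measured in these data, and its part in the low background and pileup was not tested.

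**Figure D3:**
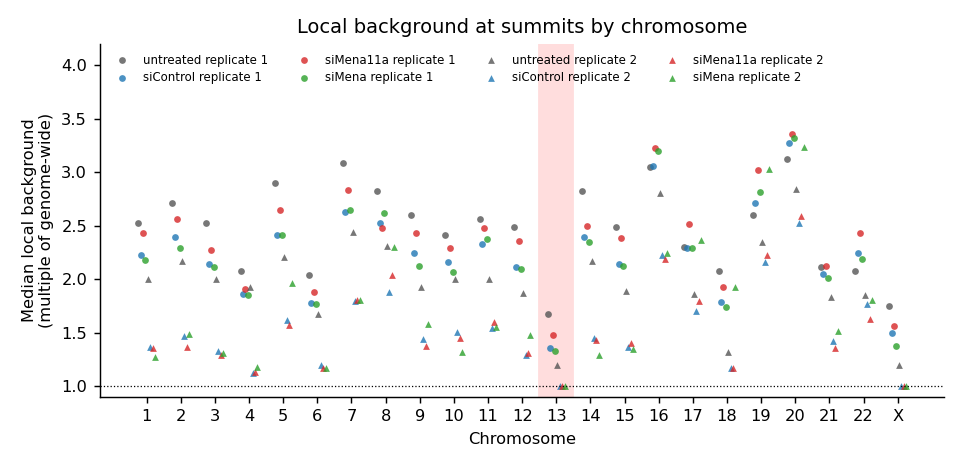
Median local background of the summits of each chromosome (horizontal axis), as a multiple of the genome-wide background of the list (vertical axis, starting at 0.9), with 1 symbol per library. Circles are replicate 1 and triangles replicate 2, colours are the groups, the dotted line is the floor of 1 and the shaded column is chromosome 13. The 8 symbols of chromosome 13 lie between 1.00 and 1.67, beside X the lowest column.

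The low background held along the arm. In stretches of 10 Mb with at least 10 summits, the medians of the 10 stretches of chromosome 13 ran from 1.37 to 2.34 in untreated, 1.05 to 2.31 in siControl, 1.02 to 1.82 in siMena11a and 1.00 to 1.88 in siMena replicate 1, and from 1.01 to 1.59 in untreated replicate 2. The middle value over all 284 to 290 autosomal stretches was 2.46, 2.15, 2.34 and 2.10 in replicate 1 and 1.98 in untreated replicate 2. All 10 stretches lay below that middle value in 4 of these 5 lists and 9 of 10 in siControl replicate 1. Below the lower quartile of all stretches lay 10 of 10 in siMena11a replicate 1 and untreated replicate 2 and 9 of 10 in the other 3 lists.

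The stretch from 90 to 100 Mb had the highest background of the 10 in all 4 replicate 1 lists, with 2.34, 2.31, 1.82 and 1.88, but not in untreated replicate 2, where it had 1.40. It held 95 regions, as did the stretch from 30 to 40 Mb, where the 4 backgrounds were 1.37, 1.05, 1.31 and 1.00. Before 50 Mb the share of summits at the floor was 49.6% in untreated replicate 2 and 43.1% in siMena replicate 1, against 23.9% and 17.4% beyond. In siControl replicate 1 these shares were 33.1% and 21.0%, in untreated replicate 1 25.2% and 18.6%, and in siMena11a replicate 1 25.8% and 24.4%. Among peaks with no neighbour within 10 kb the shares before and beyond 50 Mb were 59.8% and 36.0% in untreated replicate 2 and 48.0% and 29.3% in siMena replicate 1. They were 42.9% and 35.5% in siControl, 31.5% and 31.4% in untreated and 40.4% and 48.4% in siMena11a replicate 1. The share was thus higher before 50 Mb in 3 of these 5 lists, about equal in 1 and lower in 1.

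**Figure D4:**
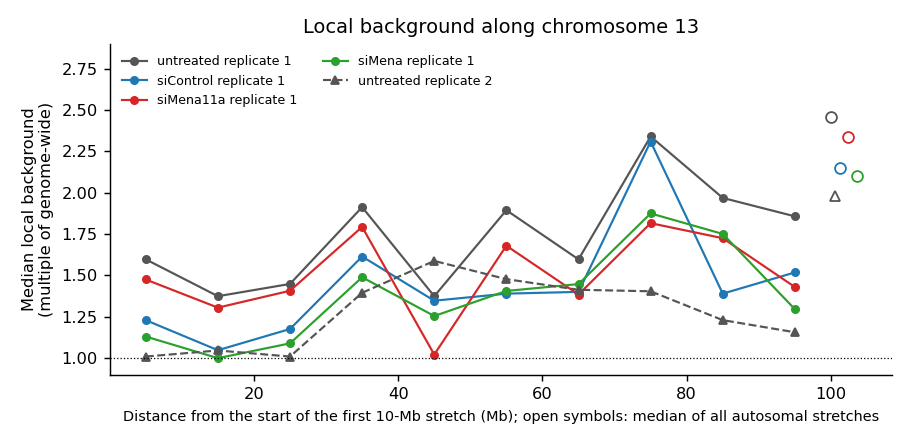
Median local background per 10-Mb stretch of chromosome 13, as a multiple of the genome-wide background (vertical axis, starting at 0.9), against the distance in Mb from the start of the first stretch, in the 5 lists with at least 10 summits in each stretch. Filled symbols joined by lines are chromosome 13, open symbols at the right are the middle values of all autosomal stretches (1.98 to 2.46), and the dotted line is the floor. All lines but that of siControl replicate 1, which rises to 2.31 at 1 stretch, stay below the open symbol of their own list.

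Fold enrichment on chromosome 13 was close to that of the other autosomes. The fold, as deposited by the authors, divides the summit pileup plus 1 by the local background plus 1, so a low background raises it and a low pileup lowers it. Median folds of chromosome 13 peaks were 6.77, 6.72, 6.73 and 6.38 in untreated, siControl, siMena11a and siMena replicate 1, against midpoints of 6.91, 6.40, 6.62 and 6.06 over the other autosomes. In replicate 2 they were 6.30, 5.21, 5.36 and 4.90, against 6.15, 4.90, 4.65 and 4.43. The chromosome lay above the midpoint in 7 lists and below it in untreated replicate 1. Its rank from the lowest of 22 autosomes was 5 in untreated replicate 1 and 17 to 22 in the other lists. The ratio to the midpoint had a median of 1.05 ± 0.054 (SD, n = 8) over lists and ran from 0.980 to 1.15.

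The −log10 q, which grows with the number of tags as well as with the fold, placed the same peaks lower. The median chromosome 13 peak stood at a percentile of 40.9 to 46.3 of its list by −log10 q in 7 lists and of 54.7 in siMena11a replicate 2. By fold it stood at 47.6 in untreated replicate 1 and at 52.4 to 72.0 in the other 7. With every list shortened to the 1020 peaks of highest −log10 q, chromosome 13 kept 1 to 6 peaks per list (0.098% to 0.588%). With lists shortened to the 1020 peaks of highest fold it had 4 to 17 (0.392% to 1.67%). For siMena replicate 2, which has 1020 peaks, both give its 4 peaks. Its share of the full lists was 0.392% to 1.65%. In untreated, siControl, siMena11a and siMena replicate 1 the shares by fold were 1.18%, 1.67%, 1.37% and 1.27%. The full-list shares there were 1.55%, 1.35%, 1.62% and 1.31%. The chromosome's place in a ranking thus depended on the measure used.

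The strongest regions were those with the highest median percentile of fold over the 8 lists, a library without the region counting as 0. Folds are not corrected for the number of tags of a list, and its part in differences between libraries was not tested. The first lay from 87776223 to 87776851. Replicate 1 folds were 17.2 (untreated), 15.3 (siControl), 14.8 (siMena11a) and 10.1 (siMena). The fold was 14.9, 7.04 and 5.64 in untreated, siControl and siMena11a replicate 2. It was not listed in siMena replicate 2, and it ranked 106 of all 46665 regions by the same measure. In untreated replicate 1, 50 tags covered its summit over a local background of 1.96.

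The second, from 50017973 to 50018753, had folds of 13.37, 13.04, 11.92 and 11.96 in untreated, siControl, siMena11a and siMena replicate 1, so the replicate 1 libraries differed little. It had 11.3, 6.12 and 7.90 in untreated, siControl and siMena11a replicate 2. The third, from 85097034 to 85097312, was only 279 bp wide, and its summits lay within 20 bp of each other in 6 libraries. Its folds were 12.4, 11.9, 12.6 and 10.4 in replicate 1 and 10.9 and 8.27 in untreated and siControl replicate 2, in the same order of groups.

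The fourth, from 73301255 to 73302348, is described with KLF5. The fifth, from 41342397 to 41342643, was the most evenly listed member. It was 247 bp wide, was listed in all 8 libraries, and its summits lay within 10 bp. Replicate 1 folds were 11.8 (untreated), 13.5 (siControl), 11.2 (siMena11a) and 12.4 (siMena), and 10.1, 7.96, 8.75 and 6.71 in replicate 2. Between 25 and 30 tags covered the summit in each library, although the genome-wide background differed between 0.538 and 2.88. In replicate 2 the local background there was 1.78, 2.27, 2.54 and 2.88 tags, against 1.30 to 1.78 in replicate 1.

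The others followed from 86373339 to 86373796, from 73355723 to 73356441, from 60737743 to 60738367, from 95253712 to 95254564 and from 96328740 to 96329959. Their folds ran from 8.68 to 14.5 in replicate 1 and from 5.21 to 12.8 in replicate 2. Of the 10 regions, 9 were not listed in siMena replicate 2, which listed 2.14% of all regions. In siMena replicate 1 the fold was the lowest of the 4 replicate 1 libraries at 8 of the 10, in a list that was also the shortest of the 4. Low folds in this library were general. Over all regions listed by both replicate 1 libraries, siMena was above siControl at 19.0%, and siMena11a was above siMena at 88.0%.

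**Figure D5:**
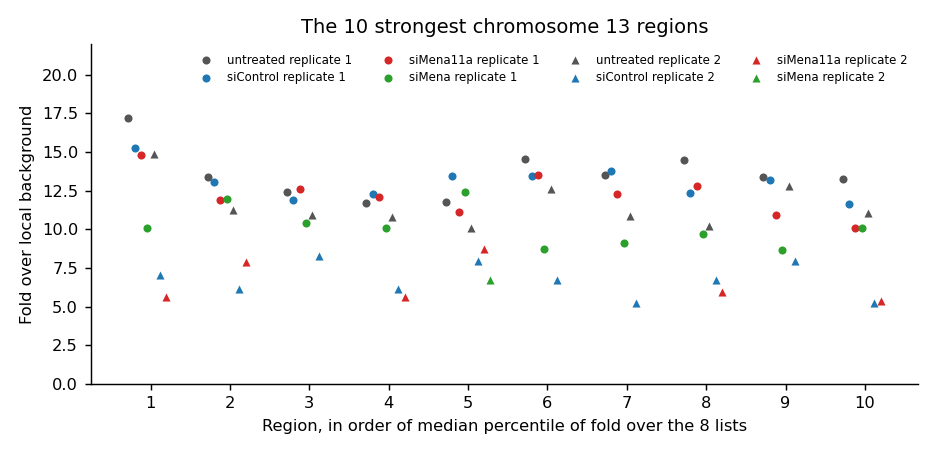
Fold over local background (vertical axis, from 0) of the 10 strongest chromosome 13 regions (horizontal axis, in the order given in the text), with 1 symbol per library that lists the region. Circles are replicate 1, triangles replicate 2 and colours the groups. Replicate 1 folds lie between 8.68 and 17.2, and those of siControl, siMena11a and siMena replicate 2 between 5.21 and 8.75.

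Besides the fifth, 2 members were listed in all 8 libraries. The region from 98085101 to 98085870 had folds of 10.0, 8.24, 8.12 and 9.69 in untreated, siControl, siMena11a and siMena replicate 1 and of 11.96, 7.84, 5.56 and 5.16 in replicate 2. The region from 107222690 to 107223243 had 11.7, 10.0, 11.2 and 9.75 in replicate 1. In replicate 2 it had 5.21 in untreated and 8.88, 5.08 and 4.64 in the transfected libraries, so untreated replicate 2, with 14 tags at the summit, lay below siControl replicate 2, with 28. At the other 2 regions listed in all 8, untreated replicate 2 had the highest fold of replicate 2. The widest member, from 95201241 to 95202559 (1319 bp), was listed in 7 libraries with folds of 3.67 to 8.85.

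KLF5 lies near 73.6 Mb of chromosome 13, and the stretch from 73 to 75 Mb was therefore described in full. In RefSeq's gene order (GRCh38.p14), the coding genes before KLF5 are BORA, a cofactor of the mitotic kinase Aurora A, DIS3, a ribonuclease of the RNA exosome, and PIBF1, a centrosomal protein. Those after it are KLF12, a zinc finger repressor, and TBC1D4, a regulator of glucose transporter traffic. No hg19 annotation was used here, so regions were not assigned to these genes. From 73 to 74 Mb there were 16 regions, and the replicate 1 libraries listed 13 (untreated), 8 (siControl), 11 (siMena11a) and 6 (siMena) of them. These libraries listed 72.4%, 56.7%, 74.6% and 30.2% of all regions. In replicate 2 the listed regions numbered 7, 2, 1 and 0, where 46.4%, 10.9%, 5.92% and 2.14% of all regions were listed. From 74 to 75 Mb there were 7.

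The strongest region at 73.6 Mb, from 73632765 to 73633326 (562 bp), was listed in 5 libraries. Replicate 1 folds were 6.63 (untreated), 8.04 (siControl), 8.85 (siMena11a) and 6.92 (siMena), and untreated replicate 2 had 8.57. The pileup at its summit was 21, 31, 39 and 17 tags in replicate 1 and 29 tags in untreated replicate 2. The knockdown folds of replicate 1 lay on either side of siControl, and so did those of the untreated pair. None of the 3 transfected replicate 2 libraries listed it. Its median percentile of fold over the 8 lists was 56.2, which ranked 4989 of all regions.

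The strongest regions of the whole stretch lay before it, at 73.3 and 73.4 Mb. That from 73301255 to 73302348 had folds of 11.7, 12.3, 12.1 and 10.1 in untreated, siControl, siMena11a and siMena replicate 1 and of 10.8, 6.12 and 5.64 in untreated, siControl and siMena11a replicate 2. That from 73355723 to 73356441 had 13.5, 13.8, 12.3 and 9.13 in replicate 1 and 10.8 and 5.21 in untreated and siControl replicate 2. Farther along, the region from 73670346 to 73671128 was listed in the same 5 libraries as that at 73632765, with folds of 4.40 to 8.41. The 11 other regions that start between 73534839 and 74 Mb were listed in 4 libraries or fewer. Of the 16 from 73 to 74 Mb, 6 were listed in 1 library only, where 31.2% of all regions were. Farther on, regions from 74172233 to 74172835 and from 74610535 to 74610918 were listed in 4 libraries each, the latter with 11.7, 12.2, 9.47 and 5.79 in replicate 1.

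Silencing of hMENA11a was compared with siControl to ask which regions open or close. Gained means listed in both libraries of the first-named group and in neither of the other, and lost the opposite. On chromosome 13 no region was gained and none was lost, where 0.0279% and 0.0557% of all regions were, and 10 members were open in all 4 libraries. For members open in all 4 libraries, here and in the comparisons below, no share over all regions is given. Without siMena11a replicate 2 the same rule gave 234 gained members (30.6%, against 24.0% of all regions). Lost members numbered 31 (4.06%, against 5.35%) without siMena11a replicate 1 and 33 (4.32%, against 6.14%) without siControl replicate 2. The other counts with 1 library left out were 4 or fewer (at most 0.524% of members, against 0.0964% to 0.746% of all regions). At the 327 members listed by both replicate 1 libraries, the fold was higher in siMena11a at 206 (63.0%), with a median log2 ratio of 0.10, and over all 23530 such regions the share was 65.5% and the median 0.13. In replicate 2 it was higher at 4 of 10 members, with a median of -0.15, so the direction differed between the replicates, on the chromosome as over all regions (27.4%, median -0.16). Folds are not corrected for the number of tags of a list. Its part in these ratios, and in those of the comparisons below, was not tested.

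Silencing of hMENA as a whole gave 0 gained members (0.00214% of all regions) and 3 lost members (0.393%, where 1.03% of all regions were lost). The lost regions lay from 60970919 to 60971466, from 80510512 to 80511284 and from 80310456 to 80310901. The first had folds of 6.13 and 5.83 in siControl replicates 1 and 2, the second 7.84 and 6.12, and the third 11.1 and 4.59. All 3 were open in untreated and siMena11a replicate 1, and 2 of them in untreated replicate 2, and none was open in siMena11a replicate 2. The siMena lists held 14678 and 1020 peaks and the siControl lists 27304 and 5231, and the part of list length in these calls was not tested. Lost members numbered 38 (4.97%, against 8.38% of all regions) without siMena replicate 1, 6 (0.785%, against 1.69%) without siControl replicate 1 and 185 (24.2%, against 28.1%) without siControl replicate 2. Gained members numbered 1 (0.131%, against 0.255%) without siMena replicate 1 and 12 (1.57%, against 1.73%) without siMena replicate 2. In lists of equal length 1 member was lost (0.131%, against 0.174%). At the 175 members listed by both replicate 1 libraries, the fold was higher in siMena at 36 (20.6%), against 19.0% of all such regions, with medians of -0.27 and -0.29 on the log2 scale. In replicate 2 none of 3 members was higher in siMena, with a median of -0.60, against -0.29.

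The siControl and untreated libraries differ by transfection with a non-targeting pool. No member was gained (0.120% of all regions) and 39 were lost (5.10%, where 3.65% of all regions were lost), with 39 members open in all 4 libraries. The siControl lists held 27304 and 5231 peaks and the untreated lists 34782 and 22424. With the 4 lists shortened to equal length, 3 members were lost and 3 gained (0.393% each, against 0.463% and 0.467% of all regions), so the excess of lost members was not seen there. Median width was 408 bp over the lost members, with median folds of 6.10 and 6.22 in untreated replicates 1 and 2, against 9.0 in untreated replicate 1 for the shared members. Shared members had to be in the short siControl replicate 2 list and lost ones absent from it, so the call rule itself favours this difference. The first lost region, from 102301878 to 102302450, had folds of 8.33 and 10.0, and the second, from 40683385 to 40683926, of 8.33 and 9.09. The next were from 25076910 to 25077202, from 111847063 to 111847402 and from 102108254 to 102108609. Among the other transfected libraries, siMena11a replicate 1, which listed 74.6% of all regions, listed 30 of the 39. siMena replicate 1, which listed 30.2% of all regions, listed 3. The siMena11a and siMena replicate 2 libraries, which listed 5.92% and 2.14% of all regions, listed none. The lost members numbered 225 (29.5%, against 27.7% of all regions) without siControl replicate 1, 119 (15.6%, against 11.3%) without untreated replicate 1 and 213 (27.9%, against 22.5%) without untreated replicate 2. Gained members numbered 31 (4.06%, against 5.55%) without siControl replicate 2. They numbered 2 (0.262%) without siControl replicate 1 or without untreated replicate 1, against 0.769% and 0.369% of all regions. At the 316 members listed by both replicate 1 libraries the median log2 ratio of folds, siControl over untreated, was -0.11, against -0.21 over all such regions. In replicate 2 it was -0.64 at 40 members, 3 of them higher in siControl, against -0.68.

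Between the exon 11a mix and the pool against all isoforms, no member was gained in siMena11a over siMena (0.240% of all regions) and none was lost (0.00643%), with 3 members open in all 4 libraries. Gained members numbered 380 (49.7%, against 45.3% of all regions) without siMena11a replicate 2, 11 (1.44%, against 3.86%) without siMena replicate 1 and 2 (0.262%, against 0.538%) without siMena11a replicate 1. Lost members numbered 5 (0.654%, against 0.979%) without siMena replicate 2 and 1 (0.131%, against 0.251%) without siMena replicate 1. At the 182 members listed by both replicate 1 libraries the fold was higher in siMena11a at 154 (84.6%, against 88.0% of all such regions), with a median log2 ratio of 0.40 (0.41 over all). In replicate 2 all 3 members listed by both were higher in siMena11a, with a median of 0.13 (0.17 over all). The comparisons that use siControl or siMena11a share those libraries and are not independent.

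The share of a library's peaks that lay on chromosome 13 was compared between groups, and no difference passed a test. Replicate 1 shares were 1.55% (untreated), 1.35% (siControl), 1.62% (siMena11a) and 1.31% (siMena). In replicate 2 they were 1.65%, 0.841%, 0.600% and 0.392%. Their 95% Clopper-Pearson bounds, for counting error alone, were 1.49% to 1.83%, 0.612% to 1.13%, 0.350% to 0.959% and 0.107% to 1.00%. The untreated libraries had the closest pair of values, and each transfected group had a lower share in replicate 2, where the lists were short. The untreated mean was 1.60% ± 0.074 (SD, n = 2). That of siControl was 1.10% ± 0.361, that of siMena11a 1.11% ± 0.722 and that of siMena 0.850% ± 0.648 (each SD, n = 2).

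Both siControl values lay below both untreated values, and siControl minus untreated was -0.506 percentage points (two-sided exact permutation p = 0.333, the smallest that 2 libraries against 2 allow). siMena minus siControl was -0.246 points (two-sided exact permutation p = 0.667), siMena11a minus siMena 0.261 points (p = 0.667, same exact test) and siMena11a minus siControl 0.014 points (p = 1.0, same exact test). These 4 comparisons were all that were made, and with such groups no p could pass 0.05, adjusted or not. The p-values compare only these libraries, and the spread between them may be technical. Within replicates 1 and 2, siMena minus siControl was -0.043 and -0.449 points, siControl minus untreated -0.198 and -0.813, and siMena11a minus siMena 0.313 and 0.208. These 3 kept 1 sign, while siMena11a minus siControl was 0.270 and -0.241. The last was -0.496 without siMena11a replicate 1, 0.525 without siMena11a replicate 2, 0.270 without siControl replicate 1 and -0.241 without siControl replicate 2. The siMena minus siControl difference was 0.212 without siMena replicate 2 and 0.00898 without siControl replicate 1, and that of siMena11a minus siMena was -0.250 without siMena11a replicate 1 and -0.197 without siMena replicate 2. With lists of equal length, siControl minus untreated was -0.162 points and siMena minus siControl -0.049. The other 2 turned in sign, to -0.124 for siMena11a minus siControl and -0.196 for siMena11a minus siMena.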

How the data were processed

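Each library has 1 deposited list of peaks on hg19. According to the submitters' processing notes, MACS2 2.2.5, SAMtools 1.7, Bowtie2 2.3.4.2 and FastQC 0.11.5 were used, and how adapters, duplicates and tag offsets were handled was not given in the sources used here. Every row holds 1 summit, and distinct intervals were taken as peaks. The deposited score is 10 times the −log10 q without decimals. The fold, −log10 p and −log10 q are the authors' values, with folds being the caller's ratio, and lists end at a q of 0.01. Fold and −log10 p were solved for a whole pileup and a local background with the caller's Poisson formula, within 0.001 for all rows. Where 2 solutions existed, the one at or above the genome-wide background, the most frequent value of a list, was taken. Above it the values were multiples of 0.02 in at least 99.96% of rows (tolerance of 0.02 tags), the step of 1 tag of 200 bp in 10 kb. Values within 1% of the genome-wide background count as the floor.

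Peaks were merged across lists, and a library with at least 1 bp of a peak in a region counts as listing it (open). Coordinates count from 1. Regions named were the 10 strongest, the 5 strongest from 73 to 75 Mb, those open in all 8 libraries, up to 5 gained and 5 lost per comparison, and the densest and emptiest bins. Other regions up to 74 Mb and the widest were added after their values were seen. The chromosome, lists and rules were chosen with earlier results of these data known. Recovery and calls were tested on simulated data. Scripts ran in Python 3.11.15 with SciPy 1.17.1, pandas 2.3.3, matplotlib 3.10.9 and numpy 2.4.6. Gene positions, motifs and sequences were not analysed here.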

Additional observations from a re-analysis of the deposited data

How the results depend on the processing

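Peak lists without read totals limit the depth that can be stated, and the floor hides local backgrounds below the genome average. The ratio of chromosome 13 to the other autosomes in local background, 0.626, was 0.682 for narrow peaks with 1 summit and 0.686 for peaks with no region within 10 kb (an alternative added after seeing the data). The ratio for regions per Mb, 0.484, was 0.510 over 1-Mb bins that held a region and 0.455 for regions listed in at least 2 libraries. That for fold, 1.05, was 1.04 for regions listed in all 4 replicate 1 libraries and 1.07 over all summits. The densest bin had 27 regions per Mb with bins of 1 Mb and, at another place (40 to 50 Mb), 10.2 with bins of 10 Mb, in place of 18.4. Held to a −log10 q of at least 5, the share difference of siMena11a minus siControl was -0.00315 points. With the 4 lists shortened to equal length it was -0.124, and that of siMena11a minus siMena was -0.196. In shortened lists, lost members numbered 2 for siMena11a against siControl (0.262%, against 0.343% of all regions) and 1 for siMena against siControl (0.131%, against 0.174%). They numbered 3 for siControl against untreated (0.393%, against 0.463%) and 2 for siMena11a against siMena (0.262%, against 0.0579%). For siControl against untreated 3 were gained (0.393%, against 0.467%). The cause was not tested.

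Leaving out each library in turn gave share differences from -0.496 to 0.525 (siMena11a minus siControl), -0.704 to 0.212 (siMena minus siControl), -0.761 to -0.251 (siControl minus untreated) and -0.250 to 0.771 (siMena11a minus siMena). The values of reversed sign were -0.496 and -0.241 for the first, 0.212 and 0.00898 for the second and -0.250 and -0.197 for the last. In the same order of comparisons, gained members ran from 0 to 234, 0 to 12, 0 to 31 and 0 to 380, and lost members from 0 to 33, 3 to 185, 40 to 225 and 0 to 5. The largest gained counts were 30.6%, 1.57%, 4.06% and 49.7% of members, against 24.0%, 1.73%, 5.55% and 45.3% of all regions. The largest lost counts were 4.32%, 24.2%, 29.5% and 0.654%, against 6.14%, 28.1%, 27.7% and 0.979%. With a library left out, a call needs fewer libraries to meet it, which raises the counts. With the replicate number as a block, the share differences of 0.014, -0.246, -0.506 and 0.261 points kept their values, with exact permutation p-values of 1.0, 0.5, 0.5 and 0.5, the smallest that 2 pairs allow being 0.5. Nothing in the labels pairs libraries by number. Over all regions, the listing of same-numbered libraries deviated together with correlations of 0.35, 0.29, 0.096 and 0.23 in the 4 comparisons.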
